A study of Mus musculus with 18 samples.

Results

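Synaptic vesicle release rests on a small set of proteins at nerve terminals, and the genes for 37 of them were followed here in hippocampus RNA-seq counts. The genes were taken as a fixed list of presynaptic names covering synapsins, vesicle membrane proteins, transmitter transporters, synaptotagmins, SNARE proteins and their partners, active zone scaffolds, RAB3 GTPases and endocytic proteins. All 37 were in the table of 15644 genes, and all 37 passed the filter on low counts (mean count above 10). The study asked how the hippocampus transcriptome of older mice differs from that of younger mice, and whether lamivudine (3TC, a nucleoside reverse transcriptase inhibitor used against HIV) alters it. The C57/B6 mice formed 3 groups, and each mouse gave 1 library from whole hippocampus tissue. The younger group was 9 months old and untreated (n = 6), the older group was 20 months old and drank plain water (n = 6), and the older 3TC-treated group was 20 months old and drank 2 mg/mL 3TC for 6 weeks (n = 6). Each group held 3 males and 3 females, the labels name no transgene or deleted gene in any group, and there was no younger group on 3TC. The drug was taken by free drinking, so the dose of a single mouse is not known.

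In a nerve terminal, vesicles are filled with transmitter by vesicular transporters, held in reserve by synapsins, and brought to the active zone, a protein scaffold under the release site. There the vesicle SNARE protein synaptobrevin joins with SNAP25 and syntaxin at the plasma membrane, complexins hold the assembled complex ready, and calcium binding to synaptotagmin triggers fusion. NSF and its adaptor then take the SNARE complex apart, and clathrin adaptors and dynamin recover the membrane. Many of these proteins come in families of close relatives whose members are used by different neurons. The vesicular transporters also differ between neurons. SLC17A7 is known as the glutamate transporter of cortical and hippocampal principal cells, and SLC32A1 as the transporter of inhibitory neurons.

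For the genes whose levels are described most closely below, the DNA around the transcription start is given from RefSeq (build GRCm38.p6). SYN1 is shown as a promoter widely known for its restriction to neurons, SLC17A7 and CPLX1 because their levels set 1 mouse apart, and RIMS3 because it had the smallest p-value of the list after 3TC. Each is 1 window of 300 bases in the direction of transcription, with capitals marking matches to the motifs searched. The windows are chrX:20920869-20921168 (minus strand) for SYN1, chr7:45163671-45163970 (plus strand) for SLC17A7, chr5:108549978-108550277 (minus strand) for CPLX1 and chr4:120854549-120854848 (plus strand) for RIMS3.
SYN1: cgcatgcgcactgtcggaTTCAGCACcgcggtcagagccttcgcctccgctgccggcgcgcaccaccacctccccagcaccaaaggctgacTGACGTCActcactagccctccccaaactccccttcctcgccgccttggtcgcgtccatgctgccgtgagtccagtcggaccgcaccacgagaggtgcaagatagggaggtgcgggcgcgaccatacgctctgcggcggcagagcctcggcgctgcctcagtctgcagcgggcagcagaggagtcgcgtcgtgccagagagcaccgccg
SLC17A7: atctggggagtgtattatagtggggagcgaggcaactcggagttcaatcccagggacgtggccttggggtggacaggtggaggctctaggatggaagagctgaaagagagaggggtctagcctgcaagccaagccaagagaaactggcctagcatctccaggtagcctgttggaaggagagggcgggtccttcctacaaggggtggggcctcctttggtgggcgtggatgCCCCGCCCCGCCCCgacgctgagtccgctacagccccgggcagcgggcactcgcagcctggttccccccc
CPLX1: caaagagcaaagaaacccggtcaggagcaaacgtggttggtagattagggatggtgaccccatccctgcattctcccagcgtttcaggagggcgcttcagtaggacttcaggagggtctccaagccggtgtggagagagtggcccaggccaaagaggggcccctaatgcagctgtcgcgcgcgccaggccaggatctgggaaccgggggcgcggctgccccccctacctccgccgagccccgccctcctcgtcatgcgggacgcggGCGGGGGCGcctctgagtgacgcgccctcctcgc
RIMS3: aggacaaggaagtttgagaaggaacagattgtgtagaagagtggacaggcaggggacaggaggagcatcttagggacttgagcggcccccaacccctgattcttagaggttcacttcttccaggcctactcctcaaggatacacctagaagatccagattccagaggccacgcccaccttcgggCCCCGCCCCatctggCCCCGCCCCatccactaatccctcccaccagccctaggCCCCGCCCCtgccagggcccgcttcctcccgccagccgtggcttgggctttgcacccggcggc

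The motifs were searched on both strands of the windows of 30 of the 37 genes, those that matched the promoter table. A GC box (GGGGCGGGG, the letters bound by SP1 family factors) was found in 13 of the 30 genes (13 of their 36 windows), against 11.4% of all 32851 windows of the same length, with 3 matches in RIMS3 and 2 overlapping matches in SLC17A7. A cAMP response element (TGACGTCA) was found in SYN1 alone, against 1.79% of all windows. The left part of RE1 (TTCAGCAC), the element read by the repressor REST in non-neuronal cells, was found in SYN1 and UNC13A, against 1.17% of all windows. An EGR site (GCGGGGGCG) was found in CPLX1, SYN2 and SYNGR1, against 2.91% of all windows, and in SYNGR1 it overlapped the GC box. TATAAA was found in SV2B, against 13.6%. These are matches of letters and not measured binding sites.

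Library totals were 34.6 to 49.1 M counts (M, mega), of which 6.01 to 13.0 M fell on genes. Repeats took 63.4 to 85.7% of the counts of a mouse, with overlapping ranges in younger (63.4 to 83.6%), older (68.3 to 85.7%) and older 3TC-treated mice (65.9 to 85.1%). All 153 pairs of libraries differed by more than counting error (chi-square over degrees of freedom at least 3.1). Markers of dentate gyrus and Ammon's horn neurons were counted in all 18 mice, with no marker at 0. One library stood apart, that of the older 3TC-treated female DFO4. In DFO4 all 9 thalamus markers were higher than in any of the other 17 mice, with a summed level of 380 CPM (counts per 1 M of the TMM-scaled library of genes and repeats together) against 74.9 to 159 in the others. In the same mouse 7 of 9 dentate gyrus and Ammon's horn markers were at their lowest (83.1 CPM in sum against 123 to 195) and 9 of 10 oligodendrocyte markers at their highest (1760 CPM against 483 to 1270). The comparisons with 3TC, and the levels that DFO4 moved most, are therefore also given without DFO4. In tissue RNA such as this, fewer cells of a type and less RNA per cell cannot be told apart.

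The release machinery made up 1.24 to 1.78% of all gene counts of a mouse. Levels between genes were compared per length, as CPM of the gene total (repeats left out) per kilobase of merged exons. On that scale the complexin CPLX2, which clamps and primes the assembled SNARE complex, was at 181 ± 38.8 (SD, n = 18), the SNARE protein SNAP25 at 178 ± 21.5, the endocytic GTPase DNM1 at 172 ± 20.9, and the calcium sensor SYT1 at 153 ± 23.5. These 4 lay above at least 99.5% of the genes with a length, and the first 28 of the 37 in order lay above at least 90.4%. The neighbours in this order were not separated by their spread: CPLX2 was above SNAP25 in 13 of 18 mice, and SNAP25 above DNM1 in 10 of 18.

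Levels within families, and of the transporters, were compared on the same scale. Among vesicle SNARE proteins VAMP2 (113 ± 16.5) was above VAMP1 (10.9 ± 7.28), and among complexins CPLX2 was above CPLX1 (106 ± 24.5). Of the SV2 glycoproteins, transporter-like proteins of the vesicle membrane, SV2A was at 91.5 ± 18.5, SV2B at 52.4 ± 10.5 and SV2C at 5.16 ± 1.0. The glutamate transporter SLC17A7 was at 140 ± 38.0 and the inhibitory transporter SLC32A1 at 25.6 ± 8.2. Among the synapsins, phosphoproteins that tether vesicles, SYN1 was at 81.6 ± 9.42, SYN2 at 64.7 ± 9.75 and SYN3 at 7.32 ± 1.20. The lowest member by the mean of 18 mice was the vesicle priming factor UNC13B, at 3.71 ± 0.560, next to RIMS3, a short relative of the RIM scaffolds, at 4.02 ± 2.63. RIMS3 was above UNC13B in 4 of 18 mice only, and without DFO4 the order turned, with RIMS3 at 3.44 ± 0.929 and UNC13B at 3.75 ± 0.553. VAMP1 and RIMS3 were the members with the largest SD relative to their mean, and VAMP1 was at 9.18 ± 1.54 without DFO4 (n = 17). Without it SLC17A7 was at 147 ± 22.6, CPLX2 at 188 ± 26.3 and SLC32A1 at 24.0 ± 4.74.

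**Figure D1:**
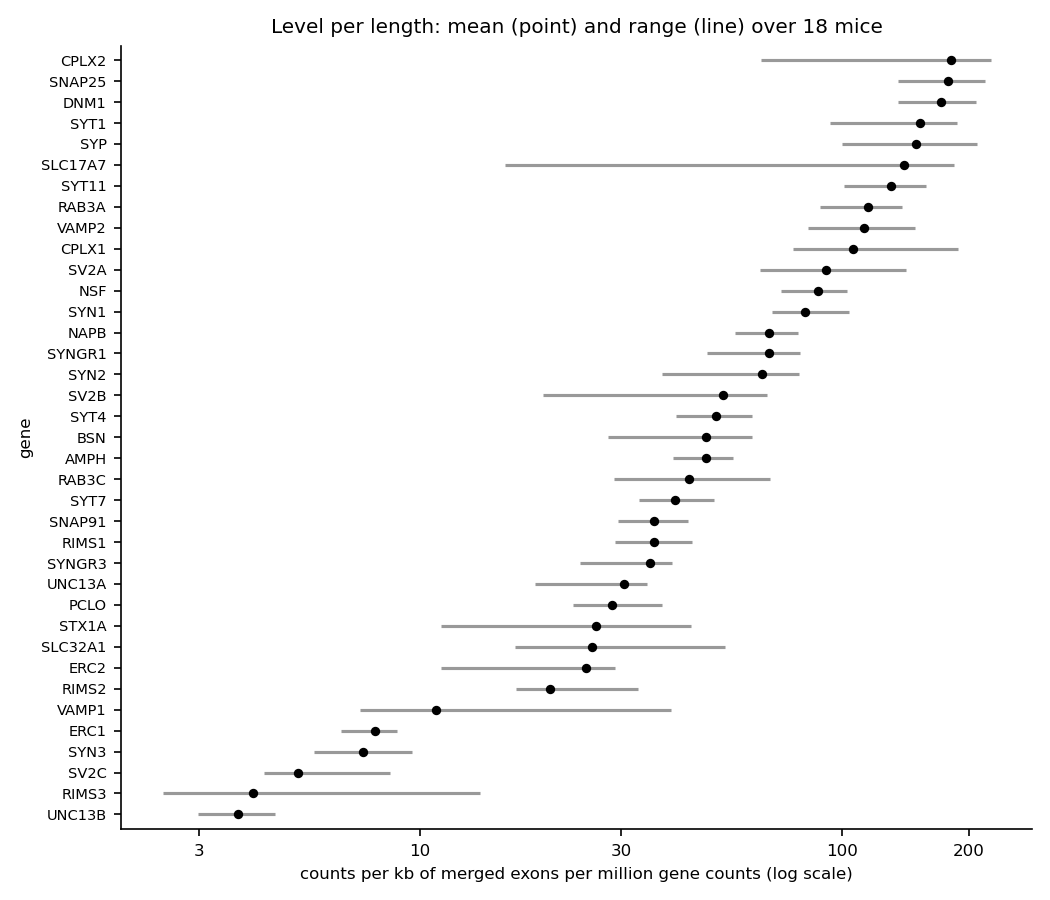
Level of each of the 37 genes in CPM of the gene total per kilobase of merged exons, on a log axis, with the mean over 18 mice as a point and the range from the lowest to the highest mouse as a line. CPLX2, SNAP25 and DNM1 lead with overlapping ranges, UNC13B and RIMS3 are lowest, and the lines of SLC17A7, VAMP1 and RIMS3 are the widest.

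The comparison of older with younger mice asks whether transcripts of the release machinery differ with age. None of the 37 genes passed the test (edgeR quasi-likelihood, Benjamini-Hochberg adjusted p under 0.05 over 16774 genes and repeats). The background was as low, with 2 features called in all, or 0.0119% of those tested. At an unadjusted p under 0.05 the list held 0 members (67 features in all, 0.399%), and DESeq2 also called 0 members (3 features, 0.0179%), with 0 members at an unadjusted p under 0.05 (0.316% of features). The median log2 fold change of the members was -0.03, with 8 of 37 above 0, beside a median of -0.01 and 46.4% above 0 over all genes. Standard errors of the members ran from 0.09 (UNC13B) to 0.35 (SLC17A7) on the log2 scale, with a median of 0.19, and no member lay beyond 2 standard errors from 0. DFO4 enters this comparison only through the shared spread, and without it there were again 0 calls (2 features, 0.0119%), 0 members and 0.602% of features at an unadjusted p under 0.05, and the same median.

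The members with the smallest p-values below 0 were SYP, RIMS3, CPLX1 and RAB3A. SYP encodes synaptophysin, an abundant protein of the vesicle membrane. SYP was at 111, 202 and 292 CPM (lowest, median and highest mouse) in younger mice and at 108, 184 and 229 CPM in older mice, with a log2 fold change of -0.19 ± 0.25 (SE). The range of the older mice lay largely inside that of the younger mice. RAB3A, the GTPase that brings vesicles to the active zone, was at 40.2, 59.9 and 84.5 CPM in younger and at 37.3, 57.0 and 75.2 CPM in older mice (log2 fold change -0.12 ± 0.18). CPLX1 was at 35.6, 52.2 and 76.8 CPM in younger and at 31.6, 49.9 and 64.2 CPM in older mice (-0.15 ± 0.21). RIMS3 was at 4.79, 5.62 and 9.45 CPM in younger and at 4.46, 5.35 and 7.25 CPM in older mice (-0.24 ± 0.32). In each of these genes the groups overlapped and the difference was smaller than its standard error.

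On the other side of 0 were PCLO, SYN3, UNC13B and NAPB. PCLO encodes piccolo, a giant active zone scaffold, and was at 121, 128 and 163 CPM in younger and at 101, 148 and 167 CPM in older mice (log2 fold change 0.08 ± 0.16). The remaining 3 differed by 0.02 to 0.03 on the log2 scale. Counts of SYN3 could not be separated from those of TIMP3, which lies inside it on the opposite strand and shares 1733 bases of exon with it, since no source used here states whether the counting used the strand. The same limit holds for other members, among them SYP and SLC32A1, where annotated antisense RNAs share 875 and 697 bases of exon. Antisense RNAs also share 1919 bases with ERC1, 566 with SYT4, and 429 and 496 with PCLO. UNC13A shares 495 bases with COLGALT1, a protein-coding gene on the opposite strand.

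Genes that stand for the main steps of release lay close to 0 with age. SNAP25 was at 233, 252 and 376 CPM in younger and at 174, 269 and 339 CPM in older mice (log2 fold change -0.03 ± 0.18). SYT1 was at 236, 285 and 404 CPM and at 182, 302 and 377 CPM (-0.03 ± 0.21). SYN1 was at 54.7, 56.6 and 74.6 CPM and at 44.7, 59.8 and 77.4 CPM (-0.02 ± 0.16). SLC17A7 was at 122, 184 and 244 CPM and at 114, 193 and 252 CPM (-0.04 ± 0.35), and SLC32A1 at 10.7, 15.2 and 21.8 CPM and at 9.76, 14.6 and 24.4 CPM (0.00 ± 0.26). In all 5 the older mice spanned a wider range than the younger mice at its lower end, and the lowest older mouse was CFO2 in 4 of them and CMO1 for SLC32A1.

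By role, all 6 vesicle membrane proteins, all 4 synaptotagmins, all 4 SNARE proteins, both complexins and both RAB3 GTPases had log2 fold changes below 0 with age, with group medians between -0.10 and -0.03. The active zone genes were split, with 3 of 9 above 0. The signs depended on single mice: without the younger mouse YM1, 28 of 37 members were above 0 (median 0.05), and without the older mouse CFO2, 25 of 37 were (median 0.05), while without the older mouse CMO6 only 3 were (median -0.12). The count above 0 was also 3 without YF3, 4 without CFO1, 5 without YM8, YM2 or YF2, and 19 without CMO1.

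**Figure D2:**
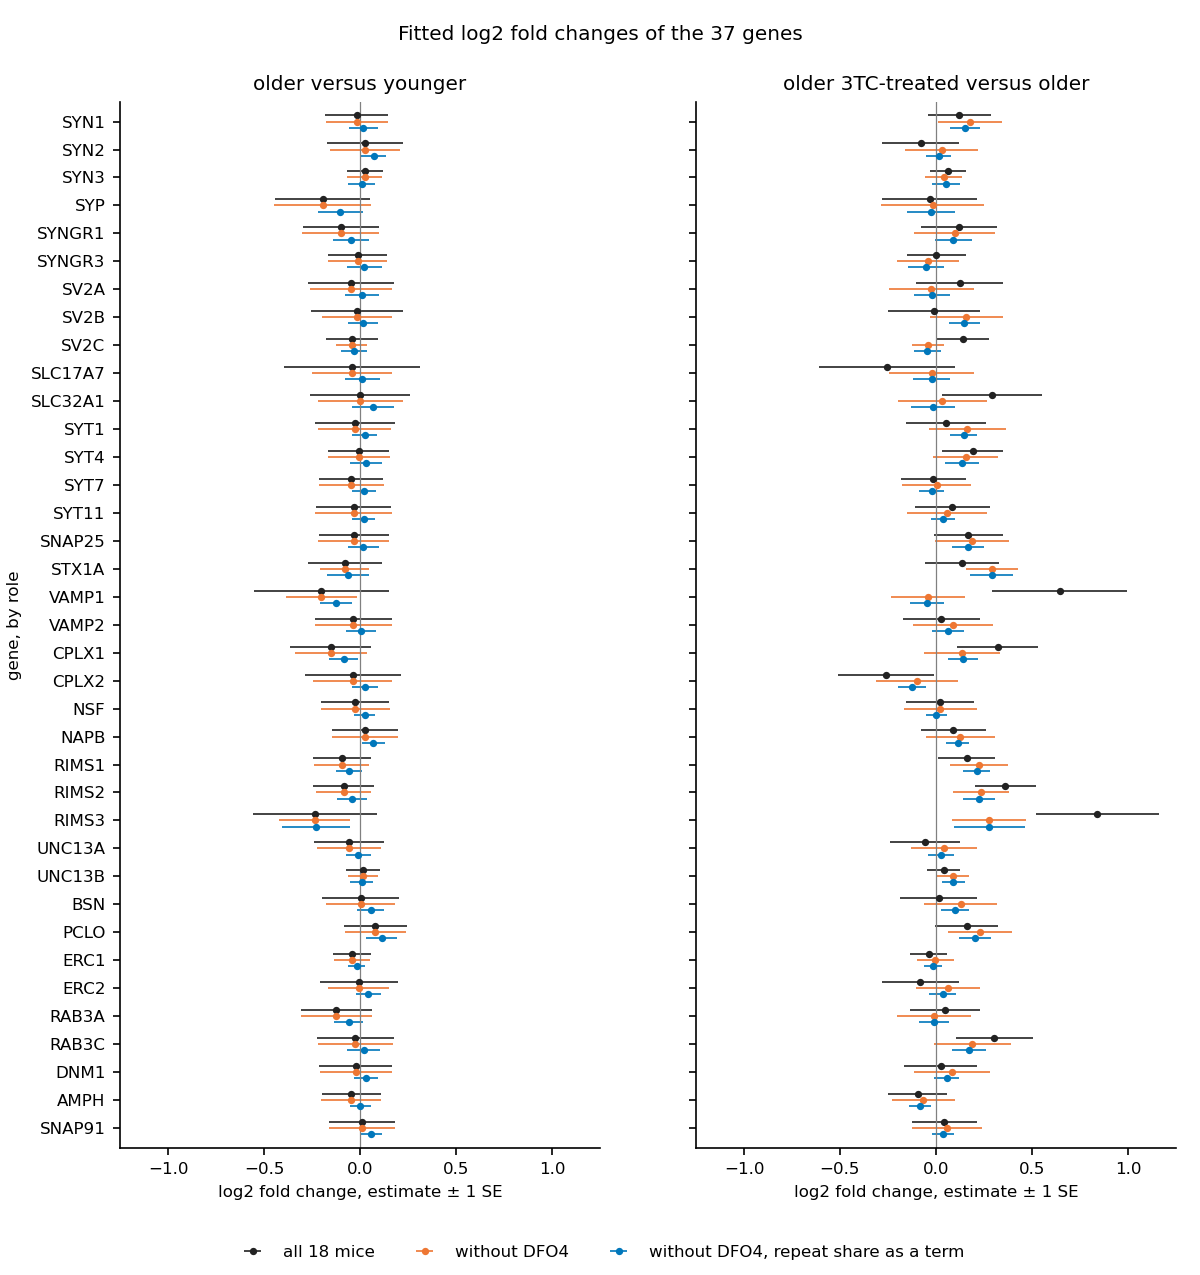
Fitted log2 fold changes of the 37 genes in older versus younger mice (left) and older 3TC-treated versus older mice (right), as estimates with 1 standard error, from all 18 mice (black), without DFO4 (orange) and without DFO4 with the repeat share of each mouse as a term (blue). No gene passed the test in any of the 3 fits. For most genes the blue bar is the shortest, and RIMS3 and VAMP1 are the 2 genes whose black point lies farthest from the other colours on the right.

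The comparison of older 3TC-treated with older mice asks whether the drug is accompanied by different levels of the same transcripts. Again 0 of 37 members passed the test, as did 0 of 16774 features in all (0%). At an unadjusted p under 0.05 there were 2 members and 194 features (1.16% of those tested), and DESeq2 called 0 features and gave 2 members at an unadjusted p under 0.05, beside 1.06% of all features. The median of the members was 0.05 on the log2 scale, with 27 of 37 above 0, beside a median of 0.01 and 53.4% above 0 over all genes. This comparison uses the same older mice as the aging comparison, so the 2 sets of values are not independent, and opposite signs between them are no second observation. Without DFO4 the members had a median of 0.06, 27 of 37 above 0, 0 calls and 1 member (STX1A, the plasma membrane syntaxin) at an unadjusted p under 0.05, beside 0 features called in all (0%), 0.703% of features at an unadjusted p under 0.05 and 50.7% of genes above 0.

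STX1A was at 6.94 CPM in DFO4, where the other 17 mice lay between 12.1 and 26.2 CPM, and its log2 fold change without DFO4 was 0.29 ± 0.13 (unadjusted p = 0.041, adjusted p = 1.0). With all mice RIMS3 had the smallest p-value. RIMS3 was at 4.46, 5.35 and 7.25 CPM (lowest, median and highest) in older and at 5.21, 6.18 and 25.7 CPM in older 3TC-treated mice, with a log2 fold change of 0.84 ± 0.32 (edgeR unadjusted p = 0.016, adjusted p = 1.0). The highest value belonged to DFO4, and the next highest 3TC-treated mouse was at 10.2 CPM. Without DFO4 the difference was 0.28 ± 0.19. RIMS2, a RIM scaffold that links vesicles to calcium channels, was at 33.2, 43.4 and 51.7 CPM in older and at 39.6, 56.4 and 79.0 CPM in older 3TC-treated mice (0.36 ± 0.16, unadjusted p = 0.035, adjusted p = 1.0), and at 0.23 ± 0.15 without DFO4, which again held the highest value.

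VAMP1, the synaptobrevin best known from spinal cord and brainstem, was at 14.4, 20.4 and 27.1 CPM in older and at 14.0, 21.3 and 92.9 CPM in the treated mice. The log2 difference of 0.64 ± 0.35 became -0.04 ± 0.19 without DFO4, whose 92.9 CPM stood against 14.0 to 24.1 CPM in the other 5 treated mice. CPLX1 was at 31.6, 49.9 and 64.2 CPM in older and at 39.4, 55.2 and 95.6 CPM in older 3TC-treated mice (0.32 ± 0.21), and at 0.14 ± 0.20 without DFO4. Leaving DFO4 aside, 1 of the 5 treated mice (DMO2) lay above all older mice for RIMS3 and 3 did for RIMS2 (DMO2, DFO5 and DFO8), while none did for VAMP1 or CPLX1. These genes were named for their small p-values in the same comparison, and the like share over all genes was not counted. DFO5 was the highest mouse for 19 of the 37 members and for 17.1% of all genes.

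On the lower side were CPLX2, SLC17A7, AMPH and ERC2. CPLX2 was at 140, 225 and 290 CPM in older and at 73.3, 181 and 289 CPM in older 3TC-treated mice (log2 fold change -0.26 ± 0.25), and at -0.10 ± 0.21 without DFO4. SLC17A7 was at 114, 193 and 252 CPM in older and at 19.9, 168 and 236 CPM in older 3TC-treated mice (-0.25 ± 0.35), and at -0.02 ± 0.22 without DFO4. For both genes DFO4 held the lowest value of all 18 mice. AMPH, the endocytic adaptor amphiphysin, was at -0.10 ± 0.15 and -0.07 ± 0.16 without DFO4. ERC2, an active zone protein also named CAST, went from -0.08 ± 0.20 to 0.06 ± 0.17.

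The genes that stand for the main steps of release lay within 2 standard errors of 0. SNAP25 was at 184, 304 and 381 CPM in older 3TC-treated mice (log2 fold change against older mice 0.17 ± 0.18, and 0.19 ± 0.19 without DFO4). SYT1 was at 181, 314 and 429 CPM (0.05 ± 0.21), and at 0.16 ± 0.20 without DFO4, its lowest mouse. SYN1 was at 46.6, 60.4 and 94.1 CPM (0.12 ± 0.16, and 0.18 ± 0.17 without DFO4). SLC32A1 was at 10.7, 14.7 and 34.2 CPM (0.29 ± 0.26), and at 0.03 ± 0.23 without DFO4, which again held the highest value. The ranges of older and older 3TC-treated mice overlapped in all of these genes.

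By role, all 4 SNARE proteins, both genes of SNARE disassembly (NSF and its adaptor NAPB) and both RAB3 GTPases lay above 0 with 3TC, as did 3 of 4 synaptotagmins, 4 of 6 vesicle membrane proteins and 6 of 9 active zone genes, all without passing the test. Without DFO4 these counts were 3 of 4 SNARE proteins, 2 of 2 genes of SNARE disassembly, 1 of 2 RAB3 GTPases, 4 of 4 synaptotagmins, 2 of 6 vesicle membrane proteins (median -0.02, against 0.06 with DFO4) and 8 of 9 active zone genes. Leaving out each mouse in turn gave medians of the 37 members from -0.01 to 0.13. Without the 3TC-treated mouse DFO5, 16 of 37 members were above 0 instead of 27.

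Set against younger mice, older 3TC-treated mice also had 0 of 37 members called, beside 2 features in all (0.0119%), and 0 members at an unadjusted p under 0.05, beside 288 features (1.72%). DESeq2 called 0 members and 3 features (0.0179%), and had 0 members and 1.43% of features at an unadjusted p under 0.05. The members had a median of 0.05 with 23 of 37 above 0 (51.3% of all genes). The highest value was that of RIMS3 at 0.60 ± 0.32 and the lowest that of CPLX2 at -0.30 ± 0.25, and they became 0.04 ± 0.19 and -0.14 ± 0.21 without DFO4. In that fit 22 of 37 members were above 0 (48.4% of all genes), 0 were called, and 0 had an unadjusted p under 0.05 (1.44% of features). Without DFO5, 15 of 37 members were above 0.

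Other presynaptic genes gave no call either. Of a further 68 genes of the vesicle cycle (syntaxin and munc18 relatives, other synaptotagmins, clathrin adaptors, synucleins, calcium channel subunits and neurexins among them), 0 were called in any of the 3 comparisons. At an unadjusted p under 0.05 there was 1 with age (RIMS4), 6 with 3TC and 4 for older 3TC-treated against younger mice (DNM3, DOC2B, SLC17A6 and SYT2, named after their values were seen), beside 0.399%, 1.16% and 1.72% of all features. Without DFO4 these counts were 1, 0 and 0, beside 0.602%, 0.703% and 1.44% of all features. The medians with all mice were -0.03 (23 of 68 above 0, against 46.4% of all genes), 0.06 (47 of 68, against 53.4%) and 0.02 (37 of 68, against 51.3%).

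Levels of the release machinery varied together between mice of the same group. In 35 of the 37 members the level (log2 CPM) was lower in mice with a higher repeat share, against 51.4% of all 15635 genes tested, and the correlation of a single member with the repeat share had a median of -0.77 against -0.07 over all genes (18 mice, as a description). Within groups, the mean log2 CPM of the members had a Pearson correlation with the repeat share of -0.99 in younger, -0.97 in older and -0.90 in older 3TC-treated mice. The Spearman correlations were -0.94, -0.94 and -0.49 in the same order (n = 6 each). The repeat share and CPM draw on the same library total. Scaled to gene counts alone, 31 of 37 members still had a correlation below 0 (median -0.45), against 26.6% of all genes (median 0.67). Without DFO4 the counts below 0 were again 35 and 31 members, with medians of -0.88 and -0.68. The 3 mice with the lowest repeat shares, YM1 (63.4%), DFO5 (65.9%) and CMO6 (68.3%), were 1 from each group, and they had the 3 highest mean log2 CPM of the members (6.42, 6.44 and 6.32). The 2 mice with the highest shares, CFO2 (85.7%) and DMO5 (85.1%), had the 2 lowest (5.54 and 5.63). This contrast was not particular to the list. Neuron markers (mean log2 CPM) were at 6.07, 5.99 and 5.86 in YM1, DFO5 and CMO6, and 5.03 and 5.04 in CFO2 and DMO5. Astrocyte markers were at 6.17, 6.31 and 6.18 against 5.43 and 5.36, and oligodendrocyte markers at 5.66, 5.84 and 5.79 against 4.97 and 4.65. Endothelium markers went the other way (3.21, 2.96 and 3.04 against 3.34 and 3.36). Thalamus, neocortex and choroid plexus markers followed no such order. Group means of the members were 6.02 ± 0.23 in younger, 5.97 ± 0.27 in older and 6.03 ± 0.26 in older 3TC-treated mice (SD, n = 6), so the groups differed by less than the mice within them.

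**Figure D3:**
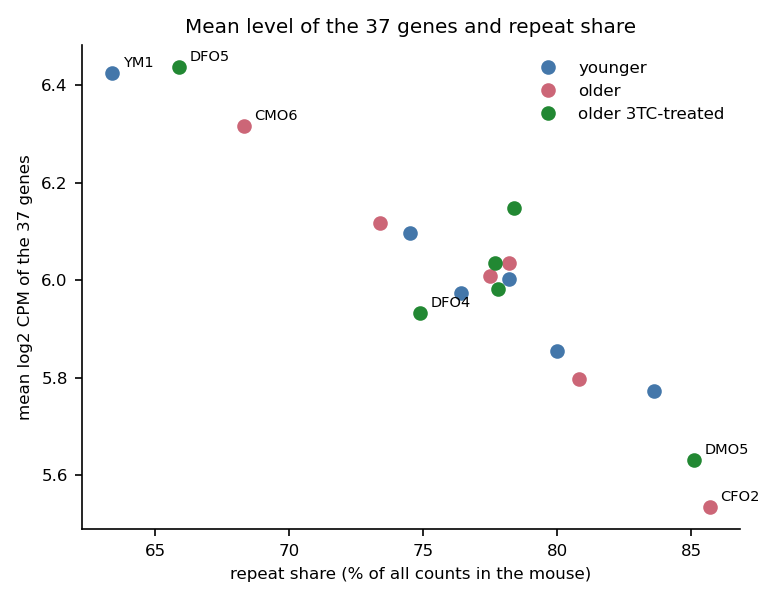
Mean log2 CPM of the 37 genes (vertical axis) against the share of all counts that fell on repeats (horizontal axis, percent) in 18 mice, coloured by group. The mice with the lowest shares, 1 from each group, have the highest means, and CFO2 and DMO5, with shares above 85%, have the lowest. DFO4 lies below the other mice of a like share.

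With the repeat share as a term in the fit, its slope passed the test for 31 of 37 members, all lower at a higher share (edgeR quasi-likelihood, adjusted p under 0.05). Over all features 79.8% had a slope that passed in either direction, 37% lower and 42.8% higher. The share and the scaled counts draw on the same library total, so a slope is partly built in. No slope was fitted on gene counts alone. The slope of SNAP25 was -0.04 ± 0.01 on the log2 scale per percentage point (adjusted p = 2.4e-06). That of NSF, the ATPase that separates used SNARE complexes, was -0.045 ± 0.0038 (adjusted p = 4.4e-09), and that of SYT11, a synaptotagmin that does not bind calcium, was -0.052 ± 0.0043 (adjusted p = 2.9e-09). SYP had the steepest slope, at -0.06 ± 0.01. The 6 members whose slope did not pass were SLC17A7, RIMS3, STX1A, SV2C, SYN3 and UNC13B, and the slopes of SYN3 and UNC13B were the 2 above 0. Without DFO4 the slope passed for 32 members, all lower, beside 38.5% of features lower and 43.9% higher (82.5% in either direction). What sets the repeat share of a mouse was not tested.

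SNAP25 was at 376 CPM in YM1, 381 CPM in DFO5 and 339 CPM in CMO6, and at 174 CPM in CFO2 and 184 CPM in DMO5. SYT1 was at 404, 429 and 377 CPM in the first 3 mice and at 182 and 210 CPM in the last 2. By contrast UNC13B stayed between 16.2 and 22.4 CPM and SYN3 between 17.2 and 23.4 CPM over all 18 mice. DFO5 held the highest value of 19 members and CFO2 the lowest of 18, where 17.1% of all genes were highest in DFO5 and 15.2% lowest in CFO2.

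Taking the repeat share into the fit narrowed the errors of the group comparisons and added no call. The median standard error of the members went from 0.19 to 0.10, and 0 of 37 members passed in each of the 3 comparisons, where 4 features (0.0238%), 0 features (0%) and 4 features (0.0238%) did in all. With age 25 of 37 members were then above 0 (median 0.01, 46.1% of all genes) and 0 had an unadjusted p under 0.05 (3.48% of features), so that the sign seen in most members turned. With 3TC 22 of 37 were above 0 (median 0.05, 55% of all genes), and 4 members had an unadjusted p under 0.05, RIMS2, RIMS3, RAB3C and CPLX1, beside 4.73% of all features. For older 3TC-treated against younger mice 25 of 37 were above 0 (49.6% of all genes), and PCLO, RAB3C, RIMS2 and SYT4 had an unadjusted p under 0.05, beside 8.32% of all features. In that comparison without DFO4, 26 were above 0 (45.2% of all genes), 0 passed (4 features, 0.0238%), and 9 had an unadjusted p under 0.05 (9.98% of features), with a lowest adjusted p of 0.33 for PCLO. Without DFO4 as well, 25 of 37 were above 0 with 3TC (median 0.05, 49.6% of all genes), 0 passed (0% of features), and the 4 members with an unadjusted p under 0.05 (4.66% of features) were RIMS1, RIMS2, STX1A and PCLO, where RIMS1 was at 0.21 ± 0.07 (adjusted p = 0.97) and RIMS2 at 0.23 ± 0.08.

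**Figure D4:**
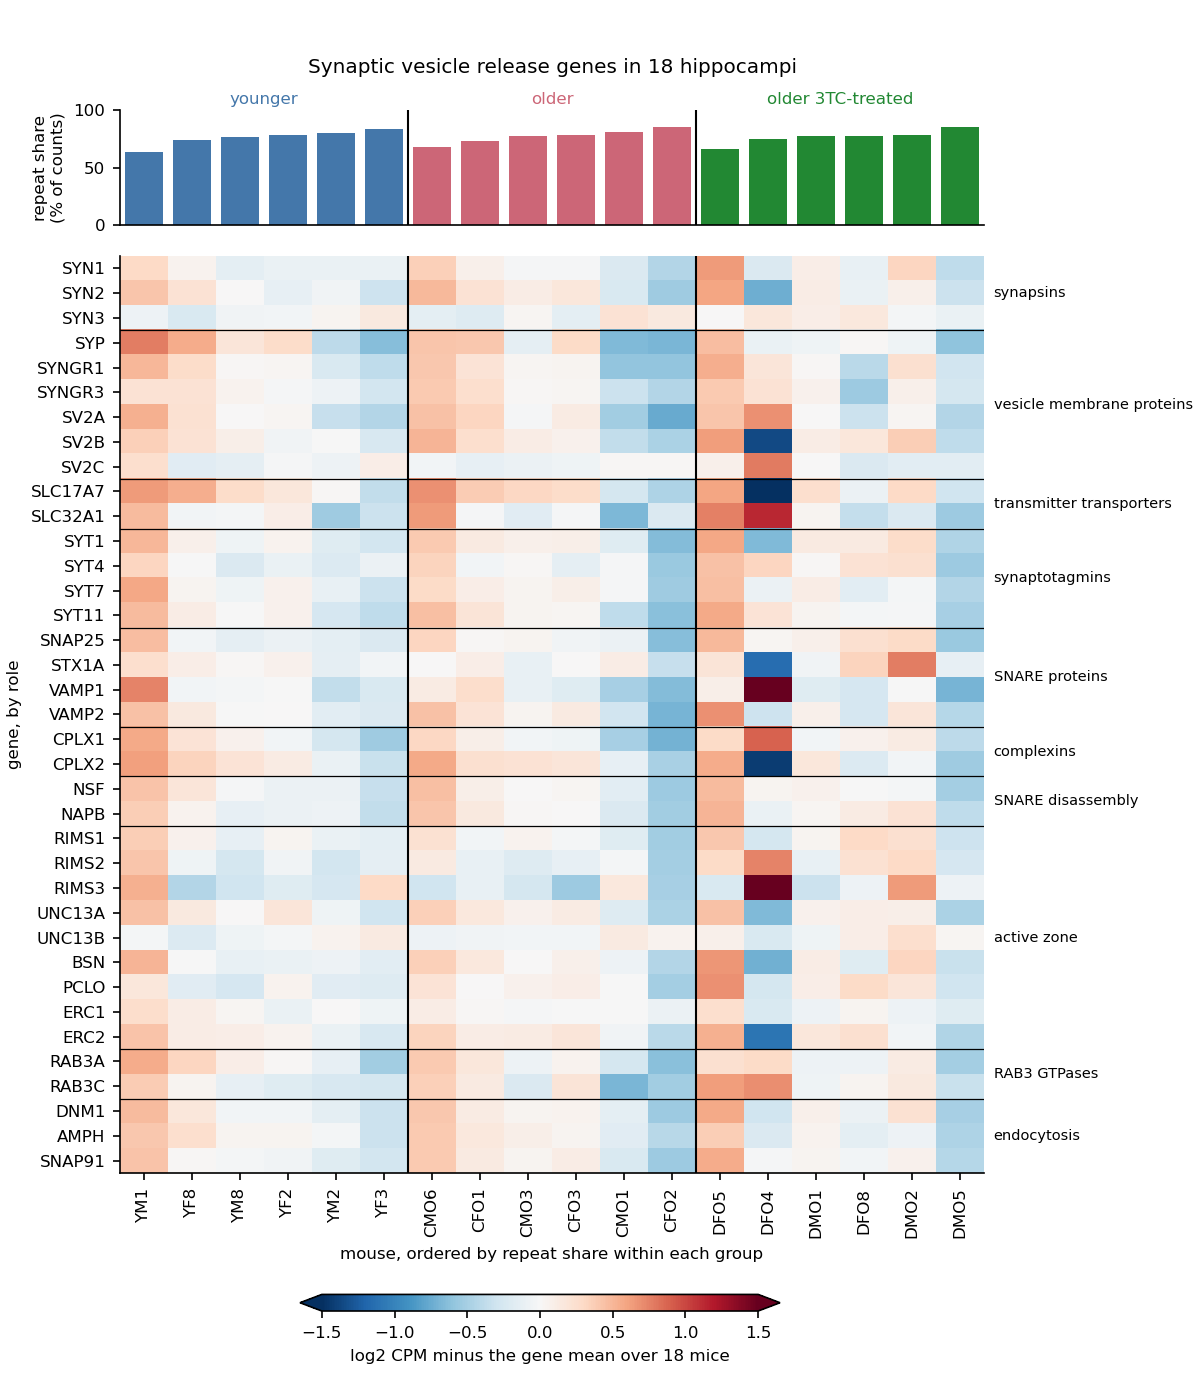
Level of each of the 37 genes (rows, by role) in each mouse (columns, ordered by repeat share within each group) as log2 CPM minus the mean of the gene over 18 mice, with the repeat share of each mouse as a bar above. The columns of YM1, CMO6 and DFO5 are high and those of CFO2 and DMO5 low for nearly every row, while DFO4 holds both the highest and the lowest values of the panel.

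DFO4 was the highest of 18 mice for 8 members (VAMP1, RIMS3, RIMS2, CPLX1, SV2A, SV2C, RAB3C and SLC32A1) and the lowest for 11 (SLC17A7, CPLX2, SV2B, ERC2, STX1A, SYN2, SYT1, UNC13A, UNC13B, BSN and ERC1), where 12.8% of all genes were highest and 7.8% lowest in it. SLC17A7 was at 19.9 CPM against 114 to 252 CPM in the other 17 mice, 3.26 below their median on the log2 scale. VAMP1 was at 92.9 CPM against 14.0 to 37.9 CPM, and RIMS3 at 25.7 CPM against 4.46 to 10.2 CPM. In all 3 genes DFO4 lay outside the range of the others.

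Ratios between relatives set this mouse apart. There were 119 counts of VAMP1 per 100 counts of VAMP2 in DFO4, against 15.4 to 28.9 in the other 17 mice. CPLX1 was at 130 per 100 counts of CPLX2, against 20.3 to 31.7. SV2C was at 50.3 per 100 counts of SV2B, against 7.9 to 16.3, and RIMS3 at 52.0 per 100 counts of RIMS1, against 7.01 to 14.9. These ratios compare counts of transcripts of different length and are read only between mice. DFO4 lay outside the range of the other 17 mice in all 4 ratios. For CPLX1 per CPLX2 and SV2C per SV2B this follows from the levels given above. DFO4 was the highest of all mice for CPLX1 and SV2C and the lowest for CPLX2 and SV2B. It was also the highest for VAMP1 and RIMS3, so the 4 ratios are no separate observation. How often other pairs of relatives set DFO4 apart was not counted. Of the other presynaptic genes, SLC17A6, the glutamate transporter known from thalamus and brainstem, was at 101 CPM in DFO4 and at no more than 22.1 CPM elsewhere, and SYT2, the fast calcium sensor of such neurons, was at 37.5 CPM, where its median in the other mice was 9.73 CPM (both named after their values were seen).

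**Figure D5:**
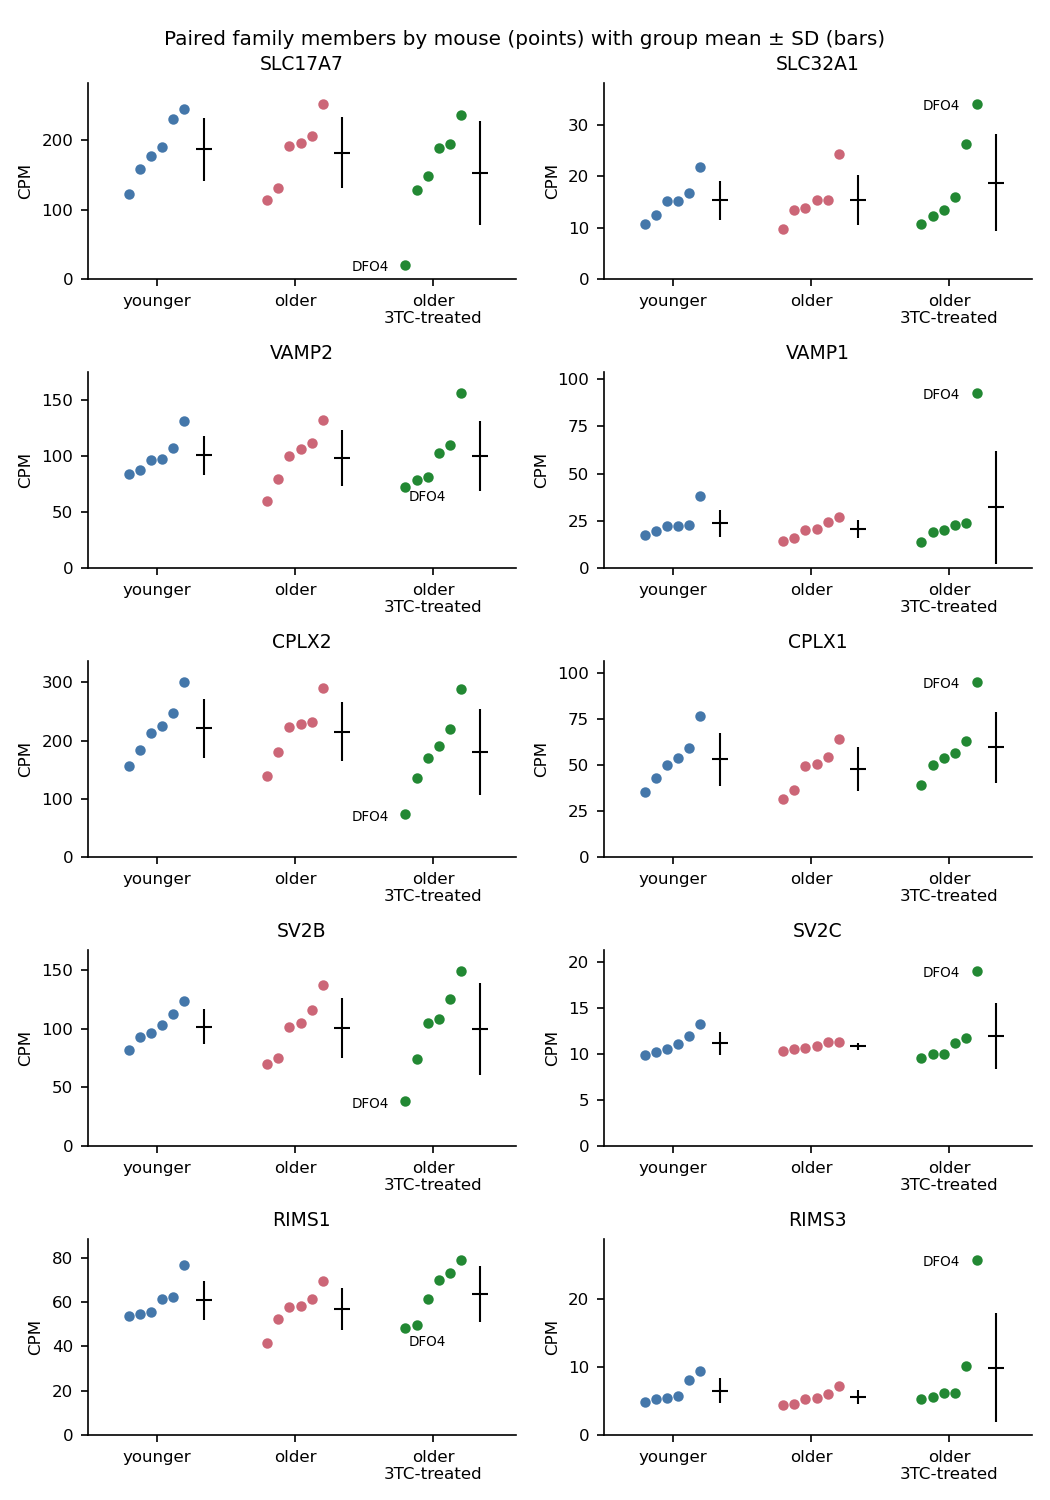
CPM of genes paired by family, or by role for the transporters SLC17A7 and SLC32A1, in each mouse (points, sorted within a group). Bars give the group mean and SD, on axes from 0. DFO4 is marked: it lies below all other mice for SLC17A7, CPLX2 and SV2B and above all others for SLC32A1, VAMP1, CPLX1, SV2C and RIMS3, while VAMP2 and RIMS1 stay within the range of the rest.

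In DFO4 the thalamus markers stood apart along with the genes above. The mean log2 CPM of the list was 5.09 in DFO4 and 2.78 to 3.84 in the other mice. A slope on the list fitted with DFO4 therefore rests largely on this mouse, and it was added after the data were seen. Such a slope cannot tell whether the genes follow the list between mice in general. With the repeat share and the mean log2 CPM of the thalamus list both as terms, the slope on the list passed for 22 of 37 members, 6 higher and 16 lower, where 6.5% of all features passed as higher and 6.71% as lower (13.2% in all). The 6 higher were VAMP1 (0.89 ± 0.08 per unit of the list), RIMS3 (0.89 ± 0.10), SLC32A1 (0.40 ± 0.09), SV2C (0.38 ± 0.05), CPLX1 (0.28 ± 0.07) and RIMS2 (0.25 ± 0.06). The lowest slopes were those of SLC17A7 (-1.32 ± 0.14), SV2B (-0.70 ± 0.07) and CPLX2 (-0.65 ± 0.06). Without DFO4 0 of 37 members passed, beside 8 of 16774 features (0.0477%), and 15 members had an unadjusted p under 0.05, beside 9.34% of features. The errors were wider in that fit (median SE 0.13 against 0.06) and the median slope was -0.24 against -0.10. RIMS3 was then at 0.75 ± 0.30, SV2C at 0.28 ± 0.12, SV2B at -0.42 ± 0.13 and CPLX2 at -0.36 ± 0.11. SLC17A7 was at -0.50 ± 0.14 and VAMP1 at 0.20 ± 0.16, both nearer to 0 than with DFO4, and CPLX1 (-0.17 ± 0.14) and SLC32A1 (-0.19 ± 0.21) lay on the other side of 0. The summed thalamus level was 77.7 to 159 CPM in younger, 76.6 to 91.7 CPM in older and 74.9 to 380 CPM in older 3TC-treated mice, and its part in the values of DFO4 was not tested.

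With sex as a term, 0 of 37 members passed for sex itself, beside 0.0835% of features higher and 1.45% lower in males (1.53% in all). Whether each group difference varied with sex was tested by an interaction term. For aging 0 of 37 members passed, beside 0 features (0%), and 0 members and 32 features (0.191%) had an unadjusted p under 0.05. For 3TC 0 members and 0 features passed, and 2 members (SYT4 and RIMS2) and 1292 features (7.7%) had an unadjusted p under 0.05. The difference of the 3TC comparison (females minus males) was above 0 for 34 of 37 members with a median of 0.35, from a median of 0.23 in females and -0.12 in males, beside 53.1% of all genes above 0. Without DFO4 the female minus male difference was above 0 for 36 members (median 0.47, 51.1% of all genes). With the repeat share as a term it was above 0 for 14 members, with a median of -0.10 (58.2% of all genes above 0), so that the direction seen in most members turned. Without DFO4 as well, 13 members were above 0 (53.6% of all genes). Among females the repeat shares were 65.9, 74.9 and 77.8% on 3TC and 73.4, 78.2 and 85.7% without it, and among males 77.7, 78.4 and 85.1% on 3TC and 68.3, 77.5 and 80.8% without it.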

How the data were processed

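Counts were deposited by the authors as whole numbers, not normalized, for 15644 genes and 1146 repeats in 18 mice. The submitters' notes name STAR, DESeq2 and mm10 without versions, and the methods name TEtranscripts. The strand setting was not given in the sources used here, and labels and methods differ on whether the RNA was poly(A)-selected or depleted of ribosomal RNA. Each repeat is counted over all its copies, and how reads shared with genes were assigned bears on the repeat share.

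Group differences were fitted in R 4.3.3 with edgeR 4.0.16 (TMM, quasi-likelihood, 1 model of 3 groups, mean count above 10, Benjamini-Hochberg over 16774 features, threshold 0.05), after a test on simulated data, with DESeq2 1.42.0 as an alternative. Log2 CPM used a prior count of 2. Group sizes were 6 mice. Gene lengths came from GENCODE M21. Members, lists and tests were chosen with earlier results of these data known. Named genes were, for aging and for 3TC, the 4 smallest p-values above 0 and the 4 below 0, plus SNAP25, SYT1, SYN1, SLC17A7 and SLC32A1.

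Marker lists (neurons, dentate gyrus and Ammon's horn, interneurons, thalamus, neocortex, choroid plexus, oligodendrocytes, astrocytes, microglia and endothelium) held 0 genes called in either comparison, with medians with age of -0.11, 0.04, -0.07, -0.17, -0.08, 0.08, 0.09, 0.04, 0.16 and -0.06 in that order, and with 3TC of 0.13, -0.32, 0.13, 0.61, 0.22, -0.57, 0.13, 0.04, 0.00 and 0.11 on the log2 scale. Without DFO4 the medians with 3TC were 0.08, -0.18, 0.03, -0.02, 0.34, -0.78, -0.09, 0.04, -0.02 and 0.08, again with 0 genes called. Fits with the thalamus list beside the repeat share (with and without DFO4), fits with the repeat share without DFO4, and the sex fits without DFO4 or with the repeat share were added after the data were seen.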

Additional observations from a re-analysis of the deposited data

Results flagged for a closer look

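Within each group of 6 mice, the highest or lowest mouse was compared with its nearest neighbour by Dixon's ratio, and 13 of 117 values tested stood apart (chance gives about 1 in 20, and the genes are not independent). The younger male YM1 was the highest of its group for SYT4 (54.9 CPM, next 43.7), SYT7 (102 CPM, next 71.1), SNAP25 (376 CPM, next 265), VAMP1 (37.9 CPM, next 22.6), RIMS2 (62.9 CPM, next 45.6), BSN (242 CPM, next 169), SNAP91 (99.7 CPM, next 75.0) and the summed thalamus markers (159 CPM, next 99.0). The older female CFO2 was the lowest of its group for PCLO (101 CPM, next 144). The older 3TC-treated female DFO4 was the highest of its group for VAMP1 (92.9 CPM, next 24.1), RIMS3 (25.7 CPM, next 10.2), SV2C (19.1 CPM, next 11.8) and the summed thalamus markers (380 CPM, next 86.6).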

How the results depend on the processing

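The number of members called was 0 in each of the 3 comparisons under every alternative run: 15 settings of tool, scaling, filter, samples or terms, and leaving out each of the 18 mice. The lowest adjusted p of a member over these fits was 0.86 with age, 0.84 with 3TC and 0.17 for older 3TC-treated against younger mice. Medians stayed within 1 SD of the mice within a group, and leaving out each mouse moved them from -0.12 to 0.05 with age, from -0.01 to 0.13 with 3TC and from -0.08 to 0.11 for older 3TC-treated against younger mice. With total counts only, 1 of 37 members was above 0 with age, as the median of all genes moved to -0.07. The labels do not say whether equal numbers pair mice. In 7 pairs of equal sex and number, deviations from group means correlated at -0.55 to 0.30, which cannot decide it, as deviations also move with the repeat share. With sex and label number as a replicate block the medians were -0.22 with age (2 of 37 above 0) and 0.23 with 3TC (36 of 37 above 0), with 0 calls. DFO4 and CMO6 each carry a number that no other mouse has, so they drop out of the group differences in that fit. DMO5 and DFO5 share a number held by no mouse of another group and do not compare groups directly. The share of all genes above 0 in that fit is not given here.

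Of the named genes, 27 values in all turned in sign, and the cause was not tested. With age, PCLO was at -0.09 and NAPB at -0.15 under the replicate block. With total counts only SYN3 was at -0.05, UNC13B at -0.05 and NAPB at -0.03. UNC13B was at -0.01 with the thalamus list as a term and at -0.01 with the list and the repeat share. With 3TC the block gave 0.04 for CPLX2, 0.13 for SLC17A7, 0.03 for AMPH and 0.20 for ERC2. ERC2 was at 0.01 with the thalamus list, at 0.00 with both terms and at 0.03 with the repeat share and without DFO4, where VAMP1 was at -0.05. With both terms and without DFO4 ERC2 was at 0.03 and VAMP1 at -0.04. Leaving out 1 mouse moved SYN3 from -0.03 to 0.06, UNC13B from -0.02 to 0.05 and NAPB from -0.07 to 0.11 with age, and VAMP1 from -0.04 to 0.80 and ERC2 from -0.22 to 0.06 with 3TC.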
